A study of Mus musculus with 14 samples.

Results

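The genes described here are 32 genes of cholesterol and fatty acid synthesis and of their control, fixed by name, on 14 one-colour expression arrays of mouse CD4+ T-cell RNA. Of the 32, 31 had at least 1 array probe under their gene name, among 36870 gene names on the array, and Acat2 had none. The 31 genes were covered by 63 probes. The samples were 7 arrays of Roquin san/+ mice, which are heterozygous for the sanroque allele of the RNA-binding protein Roquin, and 7 arrays of wild-type mice. No treatment was named for either genotype, and the age and sex of the mice were not given in the sources used here. The heterozygous allele is carried in every cell of the mouse, so T-cells were not the only cells that had it. The arrays bear the letters A to G within each genotype, and nothing stated that each came from a separate mouse, so that p-values measure the spread between arrays, which may in part be technical.

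Animal cells make cholesterol from acetyl-CoA through the mevalonate pathway and a chain of sterol intermediates, and make fatty acids from the same precursor. Both routes are controlled by the SREBP transcription factors, encoded by Srebf1 and Srebf2, which the escort protein Scap carries to the Golgi when sterols are low and which the Insig proteins hold back in the endoplasmic reticulum when sterols are plentiful. When sterols are in excess, the nuclear receptor LXR turns on the export pumps Abca1 and Abcg1. T-cells raise both synthesis routes when they are activated and divide.

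The promoters of the genes share short motifs, which are shown before the array values because the arrays were read for genes that move together. In the RefSeq promoter table of assembly GRCm38.p6, 25 of the 32 genes had an entry. The 250 bases before each start were searched on both strands for TCACNCCAC, a form of the sterol element that SREBP binds, for CCAAT, the box of NF-Y, and for GGGCGG, the box of SP1. CCAAT was present before 14 of the 15 mevalonate and sterol arm genes with an entry, and before 37.5% of all 27025 genes of the table. GGGCGG was also present before 14 of these 15 genes, and before 35.4% of all genes. Both boxes stood together before 13 of the 15, and before 12.5% of all genes. TCACNCCAC was found for Hmgcs1 only, at positions -137 to -129 counted from the start, and for 1.22% of all genes. These are matches of letters, and no binding was measured. The stretches below are those of Hmgcs1, of Msmo1, Mvk and Sc5d, whose array values went most closely with those of Hmgcs1 among the arm members, of Pmvk, whose values went against them, and of Srebf2. Each is written 5′ to 3′ on the strand of its gene, with the motif matches of either strand in capitals. A stretch shows at most 110 of the 250 bases, so that some matches lie outside it, such as the CCAAT box of Sc5d at -24 to -20.
Hmgcs1, chr13:119690214-119690323, plus strand: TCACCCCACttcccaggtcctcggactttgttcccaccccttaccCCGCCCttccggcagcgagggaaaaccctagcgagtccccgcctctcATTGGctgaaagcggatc
Msmo1, chr8:64733629-64733738, minus strand: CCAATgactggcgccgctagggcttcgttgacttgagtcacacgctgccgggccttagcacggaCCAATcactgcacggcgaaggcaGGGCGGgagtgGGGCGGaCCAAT
Mvk, chr5:114444119-114444228, plus strand: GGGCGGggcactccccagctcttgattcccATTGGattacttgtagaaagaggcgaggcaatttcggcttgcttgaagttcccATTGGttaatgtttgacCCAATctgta
Sc5d, chr9:42264432-42264541, minus strand: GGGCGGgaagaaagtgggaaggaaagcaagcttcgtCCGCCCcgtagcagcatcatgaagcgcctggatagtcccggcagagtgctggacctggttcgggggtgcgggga
Pmvk, chr3:89454393-89454421, plus strand: aactcaggttggCCAATtcacagcatcta
Srebf2, chr15:82147134-82147243, plus strand: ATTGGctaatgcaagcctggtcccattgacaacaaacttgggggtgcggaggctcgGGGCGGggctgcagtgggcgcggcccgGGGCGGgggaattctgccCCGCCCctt
The Hmgcs1 stretch holds all 3 kinds of motif, and the Msmo1 stretch holds 3 CCAAT and 2 GGGCGG boxes. The Pmvk window of 250 bases held a single CCAAT box, and neither of the other motifs.

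**Figure D1:**
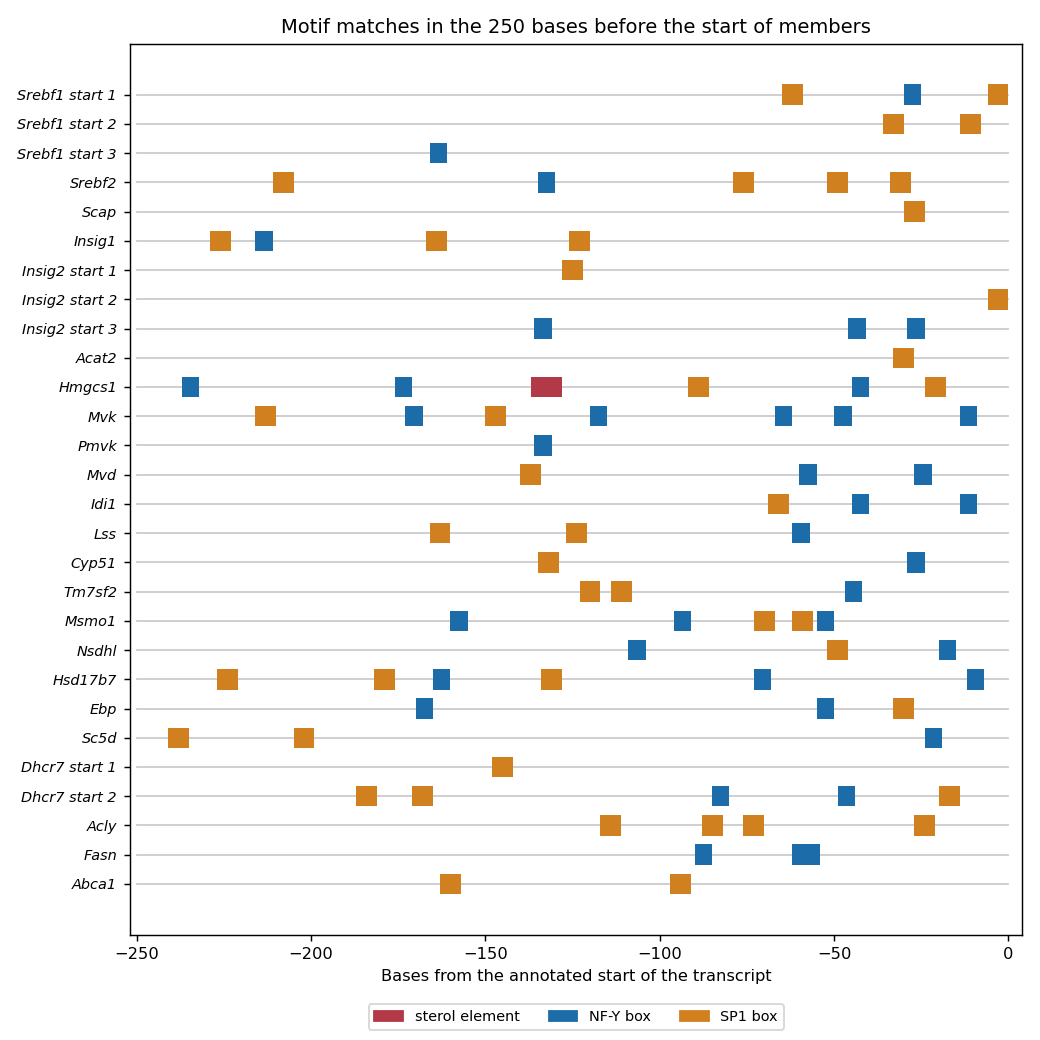
Matches to 3 motifs in the 250 bases before the start of each member with a match, by distance from the annotated start (bars drawn to scale; starts of a gene without a match are not drawn). Most mevalonate and sterol arm genes carry NF-Y and SP1 boxes, and the sterol element appears before Hmgcs1 only.

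On Roquin san/+ array G and wild-type array E the spots lay 2 rows away from their probe names, and they were moved back before any value was taken. On these arrays 23.6% and 21.4% of spots were well above background, against 55.4% to 76.5% on the others. Of the 31 genes, 22 were tested on all arrays and 8 dim ones on the 12 well-placed arrays only, while Scd1 was not tested on either set. All 9 T-cell markers checked were well above background on the 12 well-placed arrays. Roquin san/+ array C stood apart from the others, with a 75th percentile of intensity of 107 against 339 to 996. Roquin san/+ array F carried the highest level in its genotype of 8 of 9 B-cell, 8 of 9 myeloid and 5 of 5 erythroid markers. The log2 of the summed T-cell markers was lowest on Roquin san/+ arrays C and F and on wild-type array C, at 4.65, 4.59 and 4.58, against 5.37 to 5.75 on the other 11 arrays. Summed B-cell markers ran from -0.57 to 4.76 in Roquin san/+ and from -1.60 to 2.84 in wild-type arrays, and summed myeloid markers from 2.18 to 6.45 and from 0.73 to 4.87. In bulk RNA, fewer cells of a type and less RNA per cell cannot be told apart.

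Between the genotypes, the 22 members that could be tested on all 14 arrays lay close together, and none was called. Levels are log2 intensities relative to the 75th percentile of the same array, and a difference of 1 is a doubling. A gene is represented by its brightest tested probe, and all differences are Roquin san/+ minus wild-type. Of the 22, 10 had a difference above 0 and 12 below, with a median of -0.01, against a median of -0.0022 over all 12866 probes tested. Leaving out Srebf2, every tested member lay between -0.18 and 0.19. No member passed an adjusted p of 0.05 in limma (0 of 22), and the share called among all probes was 0%. One member, Srebf2, had an unadjusted p below 0.05, and the share of all probes was 4.04%. The values of the 2 genotypes overlapped for each of the 22. The 95% confidence intervals of 21 of the 22 lay within 1 on either side of 0, and those of 16 within 0.5, so that a doubling was outside the interval for all but Srebf2. On the 12 well-placed arrays 30 members could be tested, with a median difference of 0.0098 against 0.04 over all 28963 probes. None of the 30 was called there either, where 0% of all probes were called and 7.2% had an unadjusted p below 0.05, among the members again Srebf2 alone. The arrays lay on 2 slides, slide 1 with 5 Roquin san/+ and 2 wild-type arrays and slide 2 with 2 and 5. With slide as a block the median of the members was 0.05, on slide 1 alone -0.08 and on slide 2 alone 0.18, with no member called in any of them.

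**Figure D2:**
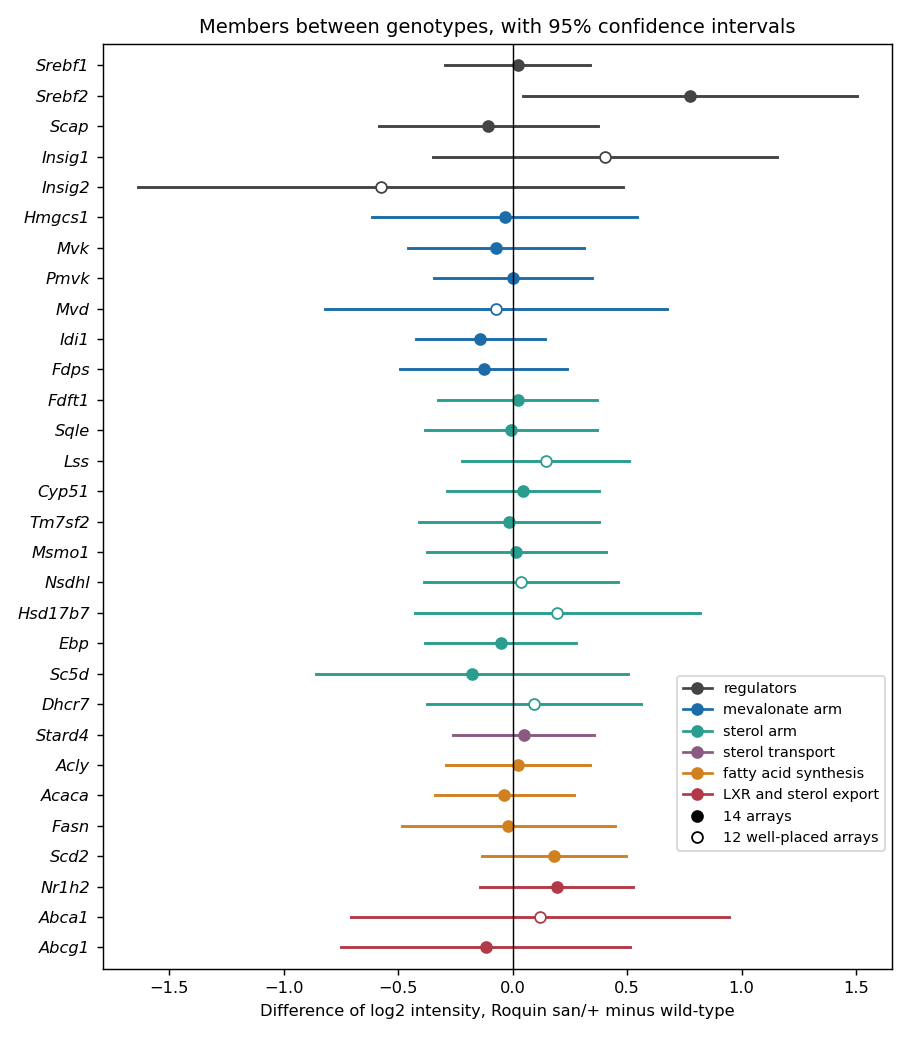
Difference of log2 intensity between Roquin san/+ and wild-type arrays for 30 members, coloured by role, with 95% confidence intervals from limma (filled circles, 14 arrays; open circles, the 12 well-placed arrays for members too dim on the others). All intervals but that of Srebf2 include 0, and the lower end of the Srebf2 interval is at 0.04.

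Among the regulators, Srebf2, which encodes the SREBP that mainly drives cholesterol synthesis, had the smallest p of all members. Its probe read -2.94 to -0.40 on the Roquin san/+ arrays, with a median of -2.61, and -3.72 to -2.52 on the wild-type arrays, with a median of -2.90. The highest value by far was that of Roquin san/+ array C, and the other 6 Roquin san/+ arrays lay within the wild-type range or just above it, up to -2.41. The difference was 0.77 ± 0.34 (SE, n = 7 and 7), with an adjusted p of 0.960 in limma and an unadjusted p of 0.023 by a two-sided exact permutation test. The probe was well above background on 7 of 7 Roquin san/+ and on 6 of 7 wild-type arrays, all but the displaced array E, so that it was tested through Roquin san/+ arrays alone, where it read higher. Without Roquin san/+ array C the difference was 0.45, and with slide as a block 0.59, with 0.71 within slide 1 and 0.47 within slide 2. The probe lies at chr15:82035495-82035554 in the mm9 coordinates of the array. A second tested probe of Srebf2, at chr15:82034765-82034824, differed in the other direction, by -0.43 ± 0.35 (SE, adjusted p = 0.960 in limma). On Roquin san/+ array C, where the first probe was at its highest, the second was at its lowest of all 14 arrays, -5.42. Across the 14 arrays the 2 probes had a Pearson r of -0.69 after genotype means were subtracted, and across the 10 arrays without the displaced arrays and without Roquin san/+ arrays C and F an r of 0.85. The mean of the 2 probes differed by 0.17 (exact permutation p = 0.282). The probes also parted on Roquin san/+ array F, where the second read -3.91, its second lowest, and on the displaced wild-type array E, where it read -2.52, its highest. Without array C the second probe differed by -0.11 and on the 10 arrays by 0.16, so that the direction of Srebf2 between genotypes depended on the probe and on the arrays.

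Srebf1, which encodes the SREBP that mainly drives fatty acid synthesis, read -0.47 to 0.06 on the Roquin san/+ arrays and -0.59 to 0.33 on the wild-type arrays, with medians of -0.33 and -0.34. Its difference was 0.02 ± 0.15 (SE, adjusted p = 0.994 in limma). The highest wild-type value was that of the displaced array E, and the other 6 wild-type arrays lay at or below -0.25. Scap, the escort protein of the SREBPs, differed by -0.11, with an interval from -0.59 to 0.37. Insig1, which retains the SREBPs and is itself an SREBP target, was tested on the 12 well-placed arrays, where it read -7.33 to -4.74 in Roquin san/+ and -6.85 to -5.83 in wild-type. Its difference was 0.40 ± 0.35 (SE, adjusted p = 0.722 in limma, exact permutation p = 0.312). Its Roquin san/+ arrays D and E were the highest and the lowest of all, so that the genotypes overlapped fully. Insig2, a second retention protein, differed by -0.58 with an interval from -1.63 to 0.48, and read -5.95 on Roquin san/+ array C against -3.20 or above on the other Roquin san/+ arrays. Without arrays C and F and the displaced arrays its difference was -0.07. This Insig2 probe was well above background on 11 of the 12 well-placed arrays, so that it was tested through a single genotype. The further Insig2 probes, tested on the same 12 arrays, differed by -0.23 and -0.16. On Roquin san/+ array C they read -4.72 and -4.29, inside their Roquin san/+ ranges.

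Of the 7 mevalonate arm genes, 5 were tested on all arrays, and their differences ran from -0.14 to 0.00068. Hmgcs1 encodes the synthase that makes HMG-CoA, the first committed compound of the route. It read -2.61 to -0.73 on the Roquin san/+ arrays, with a median of -1.14, and -2.11 to -0.78 on the wild-type arrays, with a median of -1.24. The lowest value of each genotype was that of array C, and the genotypes overlapped. The difference was -0.04 ± 0.27 (SE, adjusted p = 0.995 in limma, exact permutation p = 0.925). Idi1, the isomerase that makes the second building block of the isoprenoids, read -2.71 to -1.94 in Roquin san/+ and -2.18 to -1.85 in wild-type arrays. Its lowest value was that of the displaced array G, and its difference was -0.14 ± 0.13 (SE, adjusted p = 0.960 in limma, exact permutation p = 0.249), or -0.05 without that array. Fdps, which joins these units to farnesyl diphosphate, read -1.66 on Roquin san/+ array C, -1.13 to -0.48 on the 6 remaining arrays of that genotype, and -0.99 to -0.52 in wild-type. Its difference was -0.13 ± 0.17 (SE, adjusted p = 0.972 in limma), and without array C 0.0071. The kinases Mvk and Pmvk differed by -0.07 and 0.00068, and the decarboxylase Mvd, tested on 12 arrays, by -0.07. Mvd was well above background on 11 of these 12, so that it was tested through 1 genotype alone. Its lowest value was -5.99, on Roquin san/+ array C.

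Of the 11 sterol arm genes, which turn farnesyl units into cholesterol, 7 were tested on all arrays, with 3 differences above 0 and 4 below, from -0.18 to 0.04. Sqle, the squalene epoxidase and a rate-limiting step of the arm, read -2.43 to -1.19 on the Roquin san/+ arrays and -2.03 to -1.52 on the wild-type arrays, with medians of -1.88 and -1.63. Its lowest value was that of the displaced array G and its highest that of Roquin san/+ array B. The difference was -0.0068 ± 0.18 (SE, adjusted p = 0.997 in limma, exact permutation p = 0.974). Sc5d, a desaturase near the end of the route, read -3.99 on Roquin san/+ array C and -2.15 to -1.59 on the other Roquin san/+ arrays, against -2.81 to -1.66 in wild-type. Its difference was -0.18 ± 0.32 (SE, adjusted p = 0.972 in limma, exact permutation p = 0.716), and without array C 0.12. A second Sc5d probe, tested on the 12 well-placed arrays, differed by 0.03 there, against -0.30 for the first. On Roquin san/+ array C the second probe read -5.27, inside its Roquin san/+ range of -5.84 to -4.74. The squalene synthase Fdft1, the lanosterol demethylase Cyp51, the reductase Tm7sf2, the methyl oxidase Msmo1 and the isomerase Ebp differed by 0.02, 0.04, -0.02, 0.02 and -0.05. The remaining 4, all tested on 12 arrays, were the cyclase Lss at 0.14, the demethylation enzymes Nsdhl and Hsd17b7 at 0.04 and 0.19, and Dhcr7, the last reductase, at 0.09. On the same 12 arrays the further Lss probes differed by -0.15 and 0.38. A second Fdft1 probe, well above background on 11 of them, differed by -0.36 there, against 0.07 for the first. It read -6.74 on Roquin san/+ array C. Stard4, which carries cholesterol between membranes, differed by 0.05.

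Of the 5 fatty acid synthesis genes, 4 were tested on all arrays, with 2 differences on either side of 0. Fasn, the fatty acid synthase, read -0.22 to 0.76 on the Roquin san/+ arrays and -0.30 to 1.05 on the wild-type arrays, with medians of 0.64 and 0.72. The lowest arrays were Roquin san/+ C and the displaced wild-type E. The difference was -0.02 ± 0.22 (SE, adjusted p = 0.997 in limma, exact permutation p = 0.918). Scd2, a stearoyl-CoA desaturase that makes monounsaturated fatty acids, read -1.51 to -1.04 in Roquin san/+ and -2.14 to -1.15 in wild-type arrays. Its highest and its lowest value were those of the displaced arrays G and E. The difference of 0.18 ± 0.15 (SE, adjusted p = 0.960 in limma, exact permutation p = 0.214) was -0.02 without these 2 arrays. Acly, which makes cytosolic acetyl-CoA from citrate, and Acaca, the acetyl-CoA carboxylase, differed by 0.02 and -0.04. A second Acaca probe, tested on the 12 well-placed arrays and well above background on 11 of them, differed by -0.55 there. Its interval ran from -1.34 to 0.24, and the first probe differed by -0.05 on the same arrays. Scd1, a second desaturase, was well above background on 7 of the 12 well-placed arrays and was not tested. It read -1.17 on Roquin san/+ array F, -3.53 on wild-type array B and -4.85 on Roquin san/+ array B. These 3 arrays were also those with the highest summed B-cell markers, at 4.76, 2.84 and 1.49, and the part of other cells in the Scd1 values was not tested. On the other arrays on which it was detected, Scd1 read between -7.21 and -5.63.

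The LXR and export genes were 3. Nr1h2, which encodes LXR beta, read -0.66 to -0.15 on the Roquin san/+ arrays and -1.04 to -0.19 on the wild-type arrays, with medians of -0.29 and -0.52. Its difference was 0.19 ± 0.16 (SE, adjusted p = 0.960 in limma, exact permutation p = 0.217), and wild-type arrays A and C were the lowest. Without wild-type array C it was 0.11, and without array A 0.13. Abcg1, a sterol export pump, was lowest on array C of each genotype, with -2.51 for the Roquin san/+ array and -1.60 for the wild-type array. The remaining arrays read -0.96 to -0.37 in Roquin san/+ and -0.81 to -0.41 in wild-type. The difference was -0.12 ± 0.30 (SE, adjusted p = 0.984 in limma, exact permutation p = 0.761), and without Roquin san/+ array C 0.15. Abca1, a second export pump, was tested on 12 arrays, where it read -5.09 to -2.86 in Roquin san/+ and -5.48 to -3.97 in wild-type. The highest value was that of Roquin san/+ array F, which also carried the highest summed B-cell, myeloid, NK, erythroid and CD8 T-cell markers. The second highest was that of wild-type array B, which was also second highest for summed B-cell markers. On the next highest arrays for myeloid markers, array C of Roquin san/+ and of wild-type, Abca1 read -4.61 and -5.39. The part of other cells in the Abca1 values was not tested. The difference was 0.12 ± 0.38 (SE, adjusted p = 0.936 in limma, exact permutation p = 0.810), and without array F -0.19.

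**Figure D3:**
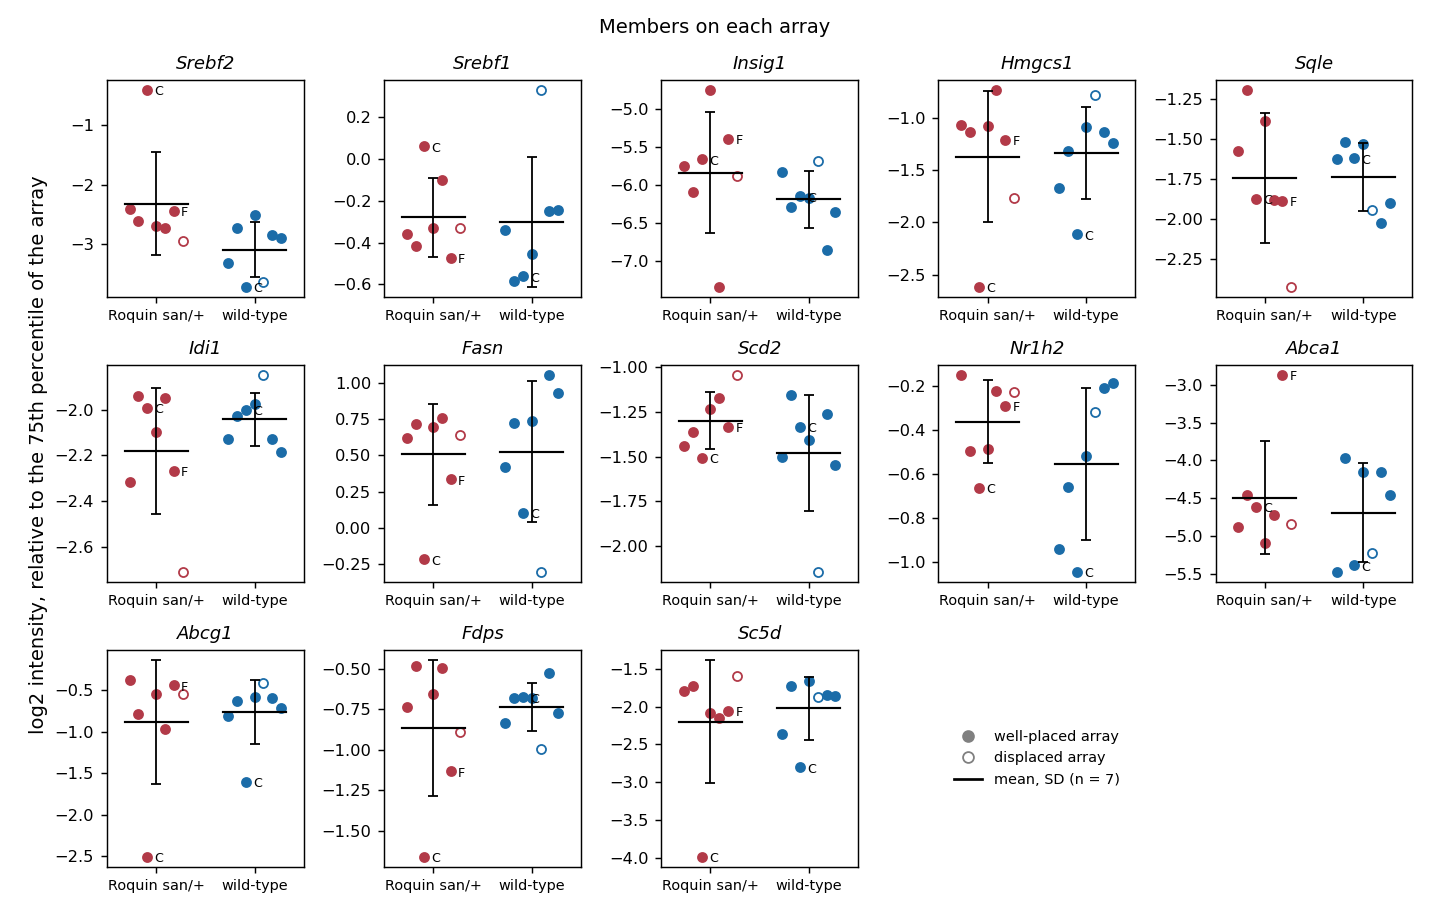
Log2 intensity, relative to the 75th percentile of the array, of 13 members on each array (points; open circles are the displaced arrays; C and F mark arrays named in the text; lines and bars, mean and SD, n = 7; the open points of Insig1 and Abca1 were not well above background). The genotypes overlap in every panel, and Roquin san/+ array C is the farthest point for Srebf2, Hmgcs1, Abcg1, Fdps and Sc5d.

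The sign of many of these small differences changed with the arrays that were kept. On the 10 arrays left without the displaced arrays and without Roquin san/+ arrays C and F, all 11 sterol arm genes lay above 0, from 0.06 to 0.31, and so did 5 of 6 mevalonate arm genes. Over the 30 members, 26 were above 0, with a median of 0.13 against 0.03 over all 29488 probes, of which 54.6% were above 0. Of 27 further genes of the same pathways tested on these arrays, 16 were above 0 and 11 below, with a median of 0.03. The largest differences were those of Hmgcs1 at 0.43 with an interval from -0.02 to 0.89, Srebf2 at 0.40 and Mvd at 0.36. None was called, and none had an unadjusted p below 0.05 (lowest adjusted p of a member 0.913 in limma, with 0% of all probes called and 4.77% with an unadjusted p below 0.05). All 9 T-cell markers were above 0 on the same arrays, with a median of 0.28, and all 10 proliferation markers were below 0, with a median of -0.69. B-cell markers were above 0 for 8 of 8 tested, with a median of 0.38, myeloid markers for 7 of 9, with 0.41, and CD8 T-cell markers for 2 of 2, with 1.18, while 2 of 2 erythroid markers were below 0, with -1.16, and NK markers were split 2 and 2. When wild-type array C was left out as well, 24 of 30 members were above 0 (52.3% of all probes), 9 of 11 in the sterol arm and 6 of 6 in the mevalonate arm, with a median of 0.11 against 0.01. Hmgcs1 was then 0.31, the T-cell markers had a median of 0.13 and the proliferation markers of -0.26, and again 0% of probes were called and 5.59% had an unadjusted p below 0.05. Both sets of arrays were chosen after the values had been seen, and the part of the cell make-up in these values was not tested.

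Of 30 further genes of the same pathways, 19 were tested on all arrays, 7 with a difference above 0 and 12 below, and none was called. The 3 with the smallest p were Acss2, Lpin1 and Lpcat3. Acss2, which makes acetyl-CoA from acetate, differed by -0.39 ± 0.18 (SE, adjusted p = 0.960 in limma), with means of -2.20 and -1.81. Lpin1, a phosphatidate phosphatase, differed by 0.32 ± 0.16, and by 0.12 on the 12 well-placed arrays. Its lowest value, -4.59, was that of the displaced wild-type array E. Lpcat3, which remodels phospholipids and is an LXR target, differed by -0.54 ± 0.35 (SE, adjusted p = 0.960 in limma for both). Lpcat3 read -3.24 on Roquin san/+ array C and -1.03 or above on the other Roquin san/+ arrays.

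Across arrays the members varied less at the median than all probes, though each is the brightest tested probe of its gene. The SD within genotype had a median of 0.303 over the 22 members and of 0.386 over all 12866 probes, and on the 10 arrays of 0.262 and 0.298. Of the 22, 6 lay above the median of all probes on 14 arrays and 7 on the 10. Idi1, Acaca and Stard4 varied least on 14 arrays, with SDs of 0.212, 0.240 and 0.244, and Srebf2, Sc5d and Abcg1 most, with 0.694, 0.647 and 0.595. Of the 22 members, 12 (54.5%) were lowest of their genotype on Roquin san/+ array C, against 31.2% of all probes, and 10 (45.5%) on wild-type array C, against 37.8%. The mean of the 12 tested mevalonate and sterol arm genes, each relative to its own median over the arrays, was -0.52 on Roquin san/+ array C, with 10 of 12 genes below their median. It was -0.29 on the displaced array G, -0.25 on wild-type array C and -0.22 on Roquin san/+ array F, where 11 of 12 genes were below. It was highest on Roquin san/+ array E, at 0.17. Arrays C and F of Roquin san/+ and array C of wild-type were also the 3 with the lowest T-cell markers, and the part of the T-cell share in the members' values was not tested.

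**Figure D4:**
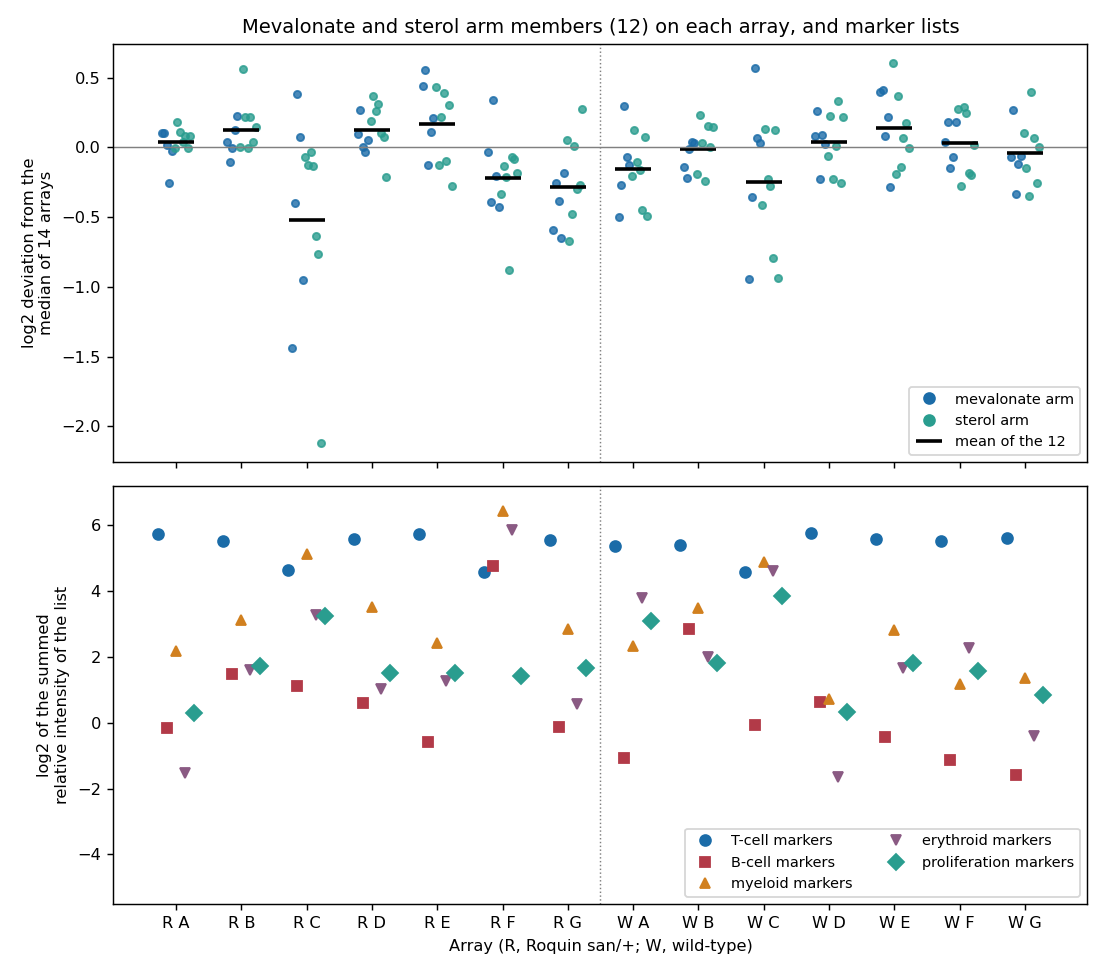
Upper panel, the 12 tested mevalonate and sterol arm genes on each array as log2 deviation from their own median over 14 arrays (points, with the mean as a line). Lower panel, log2 of the summed relative intensity of 5 marker lists. The gene mean is lowest on Roquin san/+ array C, at -0.52, and the T-cell markers are lowest on arrays C and F of Roquin san/+ and C of wild-type.

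The arm genes moved together only loosely. After genotype means were subtracted, the 66 pairs among the 12 genes had a median Pearson r of 0.29 over 14 arrays, with 56 pairs above 0, against a median of 0.015 over all pairs of tested probes, whose quartiles were -0.31 and 0.34. Within Roquin san/+ arrays the median was 0.41 and within wild-type arrays 0.10, and on the 10 arrays it was 0.07, where all pairs of probes had 0.03. The background and scaling method also moved it, to 0.14 with normexp and 0.54 after quantile normalization. The genes share every array, its depth of signal and its cell make-up, so that these values describe the arrays and carry no test. Hmgcs1 went most closely with the mean of the other arm genes, at an r of 0.81 over 14 arrays and of 0.69 over the 10. Mvk came next over 14 arrays, at 0.74, but had 0.43 over the 10, below Fdft1 at 0.59 and Fdps at 0.58. Pmvk, which follows Mvk in the pathway, went against the mean in both, at -0.45 and -0.78, and its 2 tested probes moved together at an r of 0.88. Sqle and Ebp went against the mean on the 10 arrays only, at -0.43 and -0.44, and had 0.34 and 0.60 over 14. The 2 probes of Msmo1 had an r of 0.54 over 14 arrays and of 0.83 over the 10. Those of Ebp went apart, at -0.20 over 14 arrays and -0.60 over the 10, with differences between genotypes of -0.05 and 0.13. Among all 22 members, Abcg1 and Sc5d had the highest r over 14 arrays, 0.94, with 0.83 over the 10. The pairs Mvk and Fdft1, Hmgcs1 and Mvk, and Scap and Nr1h2 had r of 0.84, 0.78 and 0.81 over 14 arrays, and of 0.87, 0.81 and 0.87 over the 10. Acly and Fdps, at 0.80 over 14 arrays, had -0.11 over the 10.

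**Figure D5:**
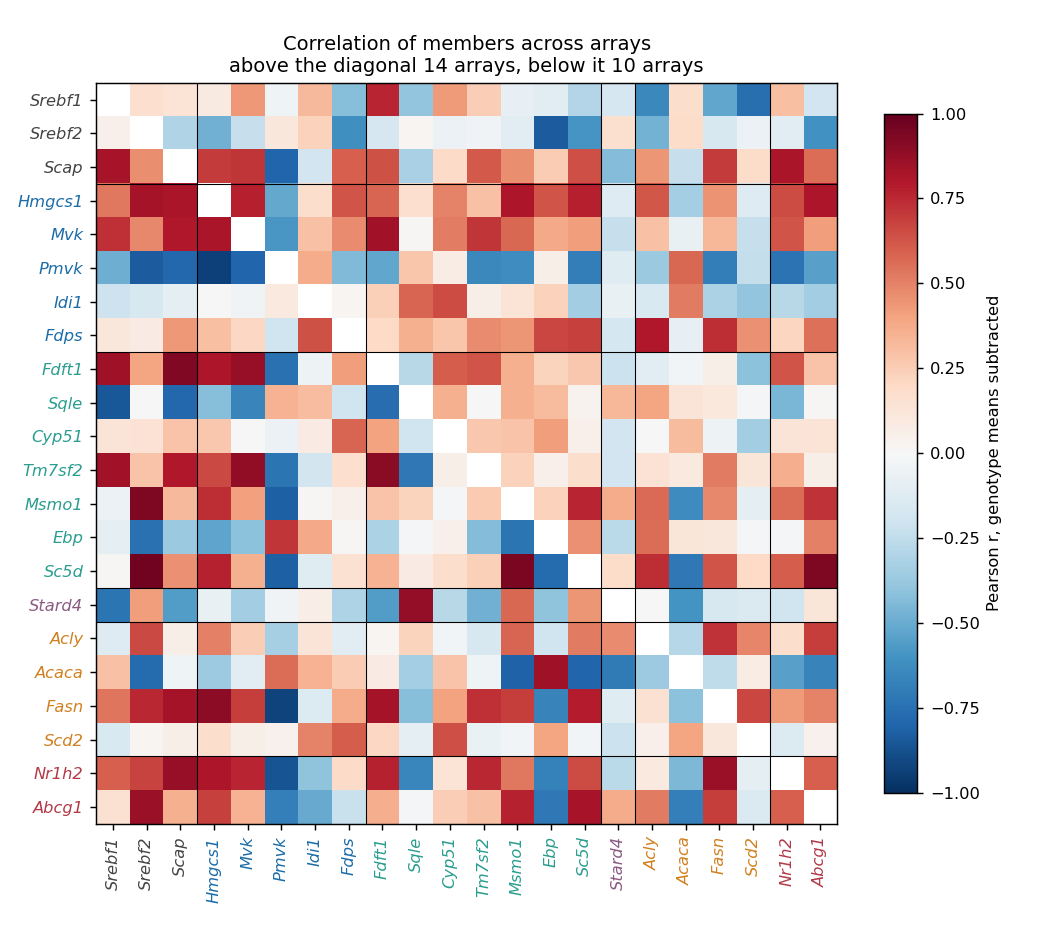
Pearson r between the 22 tested members across arrays after genotype means were subtracted, above the diagonal over 14 arrays and below it over the 10 arrays without the displaced arrays and Roquin san/+ arrays C and F; names are coloured by role and lines part the roles. Pmvk is blue against most of its neighbours, and many pairs differ above and below the diagonal, such as Srebf2 with Hmgcs1, at -0.48 and 0.83.

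Relations were tested for 6 pairs, with two-sided permutation p-values adjusted over the 6 by the Benjamini-Hochberg method. None passed on the 14 arrays with the brightest probe of each gene. Srebf2 and its target Hmgcs1 had an r of -0.43 (adjusted permutation p = 0.389) and a rho of 0.13 (permutation p = 0.660). The r was -0.81 within the Roquin san/+ arrays, 0.40 within the wild-type arrays, -0.82 on slide 1 and 0.48 on slide 2. Roquin san/+ array C, where the Srebf2 probe was highest and Hmgcs1 lowest, went with the negative sign, and without it the r was 0.45. With the second Srebf2 probe, which was lowest on that array, the r over 14 arrays was 0.81 (adjusted permutation p = 0.013) with a rho of 0.67 (adjusted permutation p = 0.060). Without array C the second probe gave 0.57 (adjusted permutation p = 0.130), and on the 10 arrays 0.75 (adjusted permutation p = 0.172). The second probe was tried after the data had been seen. On the 10 arrays the brightest probe had 0.88 (adjusted permutation p = 0.0232) with a rho of 0.67 (adjusted permutation p = 0.231), and without wild-type array C as well 0.69 (adjusted exact permutation p = 0.354). Without the 2 arrays farthest from the median of Srebf2, array C of each genotype, the r was 0.09. The sign and the call of the relation thus depended on the probe and on these arrays.

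Fasn and Scd2, both SREBP targets, had the largest r on the 14 arrays, of 0.62 (permutation p = 0.020, adjusted p = 0.120), with a rho of 0.37 (permutation p = 0.195). It was 0.62 within Roquin san/+ and 0.70 within wild-type arrays, 0.25 on slide 1 and 0.85 on slide 2, and 0.33 without the displaced arrays. Without Roquin san/+ array C and the displaced wild-type array E, the farthest for Fasn, the r was 0.08. It was 0.65 without array C alone and 0.30 without array E alone. Hmgcs1 and Sqle had an r of 0.17 and a rho of 0.08 (adjusted permutation p = 0.557 and 0.957), with 0.40 within Roquin san/+ and -0.47 within wild-type arrays, and 0.35 and -0.39 on slides 1 and 2. Hmgcs1 and Insig1 had an r of -0.20 and a rho of -0.09 (adjusted permutation p = 0.557 and 0.957), with -0.34 on slide 1 and -0.12 on slide 2. Abca1 and Abcg1, both LXR targets, had an r of 0.21 and a rho of 0.09 (adjusted permutation p = 0.557 and 0.957), with 0.22 on slide 1 and 0.35 on slide 2. Hmgcs1 and Abca1 had an r of 0.19 and a rho of 0.0022 (adjusted permutation p = 0.557 and 1), with 0.27 on slide 1 and 0.35 on slide 2. Without the 2 farthest arrays these last 4 pairs had r of 0.24, -0.22, 0.13 and 0.05. The Insig1 and Abca1 values of the 2 displaced arrays were not well above background and were kept in these relations. Those of Insig1, -5.88 on Roquin san/+ array G and -5.68 on wild-type array E, equalled those of Scd1 on the same arrays. They are thus substitute values of dim spots and carry no Insig1 level. Without those arrays the r of Hmgcs1 and Insig1, Abca1 and Abcg1, and Hmgcs1 and Abca1 were -0.26, 0.31 and 0.28.

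Outside the members, the genes whose values went most closely with the mean of the 12 arm genes over 14 arrays were Tnks2, Gm34006, Dnaaf5, Grcc10, Galnt6, Actn1, Sars, Ccdc174, Cand1 and Afp, with r from 0.86 to 0.95. They were picked as the highest of 10092 genes, of which 41 had an r above 0.8, and the median over all was 0.03. Over the 10 arrays their r ran from 0.23 for Sars to 0.69 for Cand1.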

How the data were processed

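One-colour arrays were compared between 7 Roquin san/+ and 7 wild-type samples of CD4+ T-cell RNA. The authors deposited scanner output of Agilent Feature Extraction 10.5.1.1 (per the file headers), from which the processed spot intensity was read. In that column background has been removed and dim spots carry a substitute value. The log2 table deposited beside it, made by a method not given in the sources used here, served as an alternative. On 2 arrays the spots were shifted by 2 rows to meet their probe names.

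Control spots were dropped on all arrays, and spots flagged as outliers on the well-placed arrays only, so that flagged spots stayed in on the displaced arrays. Replicate spots of each probe were averaged as log2 values, and the 75th percentile of the 10322 probes detected on all arrays was subtracted per array. A probe entered the limma 3.58.1 fit (R 4.3.3, lmFit and eBayes, Benjamini-Hochberg, threshold 0.05) when 1 genotype had it well above background on 7 of 7 arrays, which 12866 of 56605 probes met. This filter sees the genotype, since 1906 probes entered through Roquin san/+ arrays alone and 638 through wild-type arrays alone. Intensities carry no read depth, and the number of arrays limits the precision. Single genes were tested by exact permutation over 3432 arrangements (924 for 12 arrays), and relations with 100000 resamples, or all orders for fewer than 10 arrays, in Python 3.11.15 with numpy 2.4.6, pandas 2.3.3 and scipy 1.17.1. The fit was tested on simulated data.

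The members, the lists and the pairs were chosen with earlier results of these data known. Values in full are given for Srebf2, Srebf1, Insig1, Hmgcs1, Sqle, Idi1, Fasn, Scd2, Nr1h2, Abca1 and Abcg1 and for the 6 members with the smallest p, with the 3 of smallest p among 30 further pathway genes and the 10 genes most like the arm mean. Marker lists were T-cell, B-cell, myeloid, NK, erythroid, CD8 T-cell and proliferation genes. Summed NK markers ran from -2.27 to 0.66 in Roquin san/+ and from -2.76 to -1.57 in wild-type, erythroid ones from -1.51 to 5.86 and from -1.64 to 4.62, CD8 T-cell ones from -2.21 to 1.51 and from -3.53 to -1.04, and proliferation ones from 0.29 to 3.25 and from 0.34 to 3.87. Alternatives covered the filter, the scaling, normexp with an offset of 50, quantile normalization, slide and letter as blocks, the probe names as deposited, the authors' log2 values and leaving out arrays. Probe positions are in mm9 and promoters in GRCm38.p6, and the builds were not mixed. Some single-gene values of the further pathway genes are not reported here.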

Additional observations from a re-analysis of the deposited data

Results flagged for a closer look

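Of 44 groups of 7 values, for the 22 tested members in each genotype, 8 had 1 array far from the other 6 by Dixon's test, where chance gives about 1 in 20. The share of all probes flagged in this way is not given here, so that the 8 cannot be read as particular to the members. On Roquin san/+ array C the median absolute deviation from a gene's own median was 0.40 over the members and 0.50 over all probes. It was 0.37 and 0.46 on wild-type array C, 0.19 and 0.24 on Roquin san/+ array F, and 0.21 and 0.33 on wild-type array E. The values are those of the brightest tested probe of each gene, and the second probes of Srebf2 and Sc5d did not repeat them. On Roquin san/+ array C, Srebf2 read -0.40 against -2.94 to -2.41 on the rest of its genotype, Sc5d -3.99 against -2.15 to -1.59, Acly -0.43 against 0.18 to 0.45, and Abcg1 -2.51 against -0.96 to -0.37. Abcg1 also stood apart on wild-type array C, at -1.60 against -0.81 to -0.41. On Roquin san/+ array F, Tm7sf2 read -3.99 against -3.25 to -2.72. On the displaced wild-type array E, Srebf1 read 0.33 against -0.59 to -0.25, and Scd2 -2.14 against -1.55 to -1.15. Arrays C and F of Roquin san/+ and C of wild-type were those with the lowest T-cell markers, and the part of this in the 6 values on them was not tested.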

How the results depend on the processing

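No member and no probe was called by limma in any of the 30 fits. The median difference of the members ran from -0.18, with the 75th percentile over all probes, which moved the median of all probes to -0.17 (without a detection filter it was 0.40), to 0.18 on slide 2 alone, and from -0.05 to 0.05 when 1 array was left out. Among 323 alternative values for named members 64 changed sign, with a lowest adjusted p of 0.647 in limma. The causes were not tested. Sets of 11, 10 and 9 arrays, the relations without Roquin san/+ array C or wild-type array E, and those with the second Srebf2 probe were chosen after the data had been seen.

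Without the displaced arrays, the difference of Hmgcs1 was 0.079, of Sqle 0.029 and of Scd2 -0.016. With detection taken over the 12 well-placed arrays that of Srebf1 was -0.033, and with the percentile over all probes -0.15. With normexp, Srebf1 was -0.021, Sqle 0.051 and Fasn 0.037. With slide as a block, Hmgcs1 was 0.061 and Sqle 0.095. On slide 1 alone, Srebf1 was -0.057, Sqle 0.17 and Nr1h2 -0.17, and on slide 2 alone Hmgcs1 was 0.49, Sqle 0.015, Fasn 0.39, Abcg1 0.052 and Fdps 0.20. In the authors' log2 values, Srebf1 was -0.047 and Fasn 0.044. On the 10 arrays, Hmgcs1 was 0.43, Sqle 0.21, Idi1 0.0055, Fasn 0.041, Abca1 -0.18, Abcg1 0.16, Fdps 0.11 and Sc5d 0.12. On the 11 arrays that keep Roquin san/+ array C, Hmgcs1 was 0.063, Sqle 0.083, Scd2 -0.015 and Abca1 -0.19. On the 9 arrays, Hmgcs1 was 0.31, Sqle 0.24, Idi1 0.035, Abca1 -0.32, Abcg1 0.022 and Fdps 0.13. Leaving out 1 array at a time gave differences from -0.034 to 0.12 for Srebf1, -0.17 to 0.17 for Hmgcs1, -0.10 to 0.11 for Sqle, -0.16 to 0.10 for Fasn, -0.26 to 0.15 for Abcg1, -0.19 to 0.0071 for Fdps -0.31 to 0.12 for Sc5d, from 0.45 to 0.88 for Srebf2, -0.18 to -0.051 (without Roquin san/+ array G) for Idi1, 0.11 to 0.25 for Nr1h2, and 0.066 (without wild-type array E) to 0.24 for Scd2.

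The r of Srebf2 and Hmgcs1 was 0.40 within wild-type, 0.48 on slide 2, 0.88 on the 10 arrays, 0.69 on the 9 and 0.091 without the 2 farthest arrays, and ran from -0.44 without Roquin san/+ array F to 0.45 without Roquin san/+ array C. With the second Srebf2 probe it was 0.81 on 14 arrays, 0.57 without Roquin san/+ array C and 0.75 on the 10. That of Hmgcs1 and Sqle was -0.47 within wild-type, -0.39 on slide 2, -0.040 with normexp, -0.087 on the 10 arrays and -0.13 on the 9. That of Hmgcs1 and Insig1 was 0.21 after quantile normalization, and with normexp Abca1 had -0.18 with Abcg1 and -0.11 with Hmgcs1. After quantile normalization Abca1 had 0.59 with Abcg1 and 0.57 with Hmgcs1 (adjusted permutation p = 0.078 for both). The median r among the arm genes was 0.41 within Roquin san/+, 0.10 within wild-type, 0.092 on slide 2, 0.14 with normexp, 0.54 after quantile normalization, 0.069 on the 10 arrays and 0.085 on the 9.

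Nothing stated that the array letters pair the samples. The deviations of arrays with the same letter had r from -0.47 to 0.41, which cannot show whether they were paired. With the letter as a replicate block 0 members were called and the median difference was -0.011. Detection limits the dim genes Insig1, Insig2, Mvd, Lss, Nsdhl, Hsd17b7, Dhcr7, Scd1 and Abca1. With the probe names as deposited, 5 members could be tested.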
